A study of Mus musculus with 4 samples.

Results

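E2F factors, their DP partner and the pocket proteins form the switch that turns genes of DNA replication and mitosis on and off. The 10 members were taken by gene symbol from the 56691 genes of the count tables: the activating E2F genes E2f1, E2f2 and E2f3, the repressing genes E2f4, E2f7 and E2f8, the DP gene Tfdp1, and the pocket protein genes Rb1, Rbl1 and Rbl2. Each symbol matched 1 gene identifier, and all 10 were among the 13052 genes tested. Poly(A) RNA was sequenced from Ter119+ bone marrow cells of mice, with 2 libraries of Med16 fl/fl (floxed alleles) and 2 libraries of Med16 KO, all with a time label of 3 weeks. Ter119 is a surface antigen of the erythroid lineage, and Med16 encodes a subunit of Mediator, which links transcription factors to RNA polymerase II. The labels state neither the Cre driver nor whether libraries of a genotype came from separate mice, so p values rest on the differences between these libraries alone, and those may be technical. The comparison asks how the loss of Med16 moves the activating members against the repressing ones.

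E2F proteins bind promoters together with a DP protein. In resting cells the pocket proteins RB, p107 and p130 (encoded by Rb1, Rbl1 and Rbl2) hold E2F factors in repressive complexes, and phosphorylation by cyclin-dependent kinases releases them. E2F4 works mostly inside such complexes, among them the DREAM complex, whereas E2F7 and E2F8 bind DNA without DP or pocket proteins and repress E2F target genes late in S phase. Erythroblasts divide a few times while they mature and then leave the cell cycle, and mice that lack Rb1, E2f2 or E2f4 are known for defects of red cell formation.

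Library depth was even, with 6749196 to 7216333 counts assigned to genes, so that 1 count equalled 0.140 to 0.147 CPM (counts scaled to TMM library size, the unit of all levels here). Other library traits differed by genotype. Genes with a count numbered 18947 and 19016 in fl/fl against 16892 and 16479 in KO. Reads not aligned were 1.05% and 0.83% in fl/fl against 2.69% and 3.27% in KO. Whether these traits bear on the results was not tested. Med16 followed the labels, with 164 and 127 counts in fl/fl and 16 and 30 in KO. The fl/fl libraries were more alike than the KO libraries, with Pearson's r of 0.983 and 0.956 over genes, which are no independent replicates. Erythroid markers were abundant in every library, led by Slc4a1 and Alas2. Their summed level was 31054 and 31208 CPM in fl/fl and 26444 and 26541 CPM in KO, with 9 of 10 lower and Alas2 higher. Calls over all genes tested were 9.89% lower and 8.50% higher. Among those at least as abundant as the least abundant member, they were 17.4% and 13.5%. Markers of other marrow cells were present, and some lists of them moved with genotype. Most tested markers of B cells and of T and NK cells were not called. All 12 neutrophil markers were higher, and their sum was 14214 and 14412 CPM in fl/fl against 19982 and 20502 CPM in KO. Of 8 megakaryocyte and platelet markers, 6 were higher, 1 was not called and Gp1bb had 0 counts in every library; the sums were 81.2 and 87.9 CPM against 190.1 and 191.1 CPM. Their part in the results below was not tested. In bulk RNA, fewer cells of a type and less RNA per cell cannot be told apart.

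RefSeq promoter windows (build GRCm38.p6, from 250 bases before to 50 bases after a start) were found by symbol for 8 of the 10 members, all except E2f4 and Rb1. They were searched on both strands for forms of the known E2F motif, either TTTGGCG or TTTCGCG, or else TTTCCCG or TTTGCCG, with overlaps between strands allowed, because the family is known to bind promoters of its own genes. A match stood in the windows of 5 of these 8 members (62.5%), against 12.8% of 9296 tested genes with a window and 6.70% of all 32851 windows of the table. The stretches with matches follow, 5′ to 3′ on the strand of the gene, with the matches in capitals. The 4 longer ones end before the start, and that of E2f2 lies just after it.
Rbl1, chr2:157204535-157204654, minus strand: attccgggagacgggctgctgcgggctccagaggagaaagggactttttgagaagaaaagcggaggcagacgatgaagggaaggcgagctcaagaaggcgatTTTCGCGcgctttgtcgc
E2f2, chr4:136172294-136172323, plus strand: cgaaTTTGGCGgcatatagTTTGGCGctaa
E2f3, chr13:29986064-29986183, minus strand: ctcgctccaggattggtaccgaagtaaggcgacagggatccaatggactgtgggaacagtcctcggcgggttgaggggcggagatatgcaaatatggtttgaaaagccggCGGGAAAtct
E2f7, chr10:110745229-110745348, plus strand: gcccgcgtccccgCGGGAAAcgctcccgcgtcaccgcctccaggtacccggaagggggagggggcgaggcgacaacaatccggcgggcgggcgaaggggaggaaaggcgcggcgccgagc
Tfdp1, chr8:13338631-13338750, plus strand: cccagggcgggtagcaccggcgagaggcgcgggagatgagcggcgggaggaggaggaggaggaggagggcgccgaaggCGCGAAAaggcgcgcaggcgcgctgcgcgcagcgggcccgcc
In Rbl1 the match began 18 bases before the start, and in E2f2 a pair began 25 and 40 bases after it. The bases just after the start in that E2f2 window were in no E2f2 transcript of GENCODE M21. Those of the other E2f2 window were in one, and that window held no match. The matches printed for E2f3, E2f7 and Tfdp1 began 10, 197 and 42 bases before the start, and E2f3 held a further match 4 bases after it. The forms CGGGAAA in E2f3 and E2f7 and CGCGAAA in Tfdp1 are listed motifs read on the opposite strand, and a match is a description of letters, not a binding site.

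Changes within the family were modest and mostly decreases. Of the 10 members, 5 fell in Med16 KO and none rose (edgeR quasi-likelihood test, Benjamini-Hochberg adjusted over all genes tested), where 9.89% of all genes tested were called lower and 8.50% higher. The 5 were E2f2, E2f4, E2f8, Rb1 and Rbl1, and their decreases lay between 0.22 and 0.48 on the log2 scale. The median over the 10 members was -0.27, beside 0.02 over all genes tested. Among the 6604 tested genes at least as abundant as the least abundant member, 17.4% were called lower and 13.5% higher, with a median of -0.02. Both KO libraries lay below both fl/fl libraries for 7 members, which held for 28.2% of all genes tested, and no member lay above in both, which held for 29.4%.

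**Figure D1:**
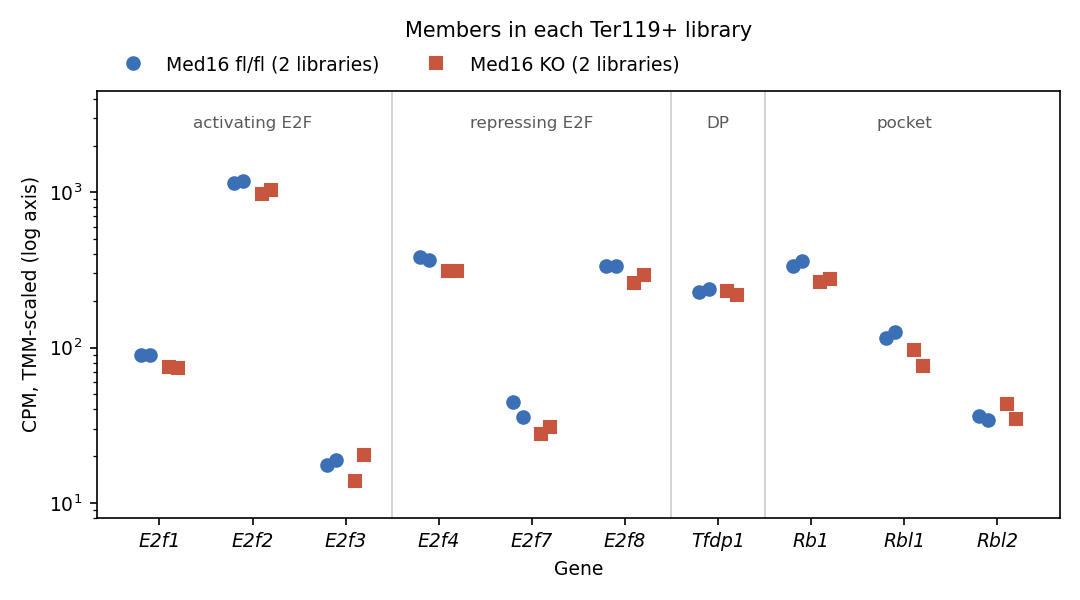
Level of each member in the 4 libraries, in TMM-scaled CPM on a log axis, with fl/fl libraries as circles and KO libraries as squares and library 1 left of library 2. The KO squares of E2f1, E2f2, E2f4, E2f7, E2f8, Rb1 and Rbl1 lie below both circles of the same gene, while those of E2f3, Tfdp1 and Rbl2 overlap them.

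E2f2 was the most abundant activating member in these cells. It stood at 1154 and 1191 CPM in fl/fl and at 972.3 and 1039 CPM in KO. The genotypes did not overlap, and the mean was lower by 14.2% (log2 fold change -0.22, SE 0.04, adjusted p = 0.0016). E2f1, the founding member and a driver of S phase entry, had 89.6 and 88.9 CPM in fl/fl and 75.3 and 73.6 CPM in KO. Its KO libraries were both below, but the change was not past the threshold (log2 fold change -0.26, 95% interval -0.48 to -0.05, adjusted p = 0.089). With an offset for GC content the value was -0.48 and past the threshold (adjusted p = 0.0043). Without KO library 1 it was -0.29. E2f3, which encodes a long and a short protein from separate promoters that gene counts do not separate, was the least abundant member. Its levels were 17.6 and 19.0 CPM in fl/fl and 13.9 and 20.4 CPM in KO, which overlapped (log2 fold change -0.09, 95% interval -0.60 to 0.42).

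The most abundant repressing member was E2f4, whose protein enters the nucleus mainly in complex with pocket proteins. E2f4 was at 380.5 and 367.7 CPM in fl/fl and at 309.2 and 310.5 CPM in KO. All KO values were below all fl/fl values, and the mean was lower by 17.2% (log2 fold change -0.27, SE 0.06, adjusted p = 0.0029). E2f8 stood at 334.5 and 336.7 CPM in fl/fl and at 260.8 and 295.4 CPM in KO. Its genotypes did not overlap either, although the KO libraries lay further apart (log2 fold change -0.27, SE 0.07, adjusted p = 0.0089). E2f7, the other atypical repressor, was much less abundant, with 44.6 and 35.8 CPM in fl/fl and 27.7 and 30.9 CPM in KO. Its KO libraries were both below, yet the spread between libraries was wide, and the log2 fold change of -0.46 was not past the threshold (95% interval -0.82 to -0.09, adjusted p = 0.077). Without KO library 2 it was -0.55, and without fl/fl library 1 it was -0.30.

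Exons of E2f8 overlap the antisense gene Gm2788 over 11.2% of their length. With the strand setting of the counting unknown, it is open how reads in that overlap were assigned. Reads classed as ambiguous, 2.54% to 2.96% of reads in a library, were among those left out of the gene counts. Gm2788 stood at 76.0 and 78.6 CPM in fl/fl and 71.2 and 65.5 CPM in KO and was not called (log2 fold change -0.18, adjusted p = 0.304).

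Tfdp1, which encodes the DP1 partner of the E2F proteins, was at 228.9 and 237.4 CPM in fl/fl and 230.2 and 219.5 CPM in KO. The genotypes overlapped, and the log2 fold change of -0.05 had a 95% interval of -0.19 to 0.09 (adjusted p = 0.659). Its sign turned to 0.0020 when only library size was scaled for, and to 0.012 with a GC content offset. The sister gene Tfdp2, which is no member, fell much more. Tfdp2 was at 1134 and 1181 CPM in fl/fl and 765.5 and 771.4 CPM in KO, a log2 fold change of -0.59 (SE 0.04, adjusted p = 8.4e-08). Per kilobase of transcript, Tfdp2 made up 65.2% and 65.3% of DP transcripts in fl/fl but 55.8% and 57.1% in KO. The DP pool thus held a smaller share of Tfdp2 in both KO libraries, a difference in share that was not tested.

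Rb1 was the most abundant pocket protein gene and had the smallest adjusted p of the 10 members. Its levels were 336.8 and 360.5 CPM in fl/fl against 264.8 and 275.7 CPM in KO. The genotypes did not overlap, and the mean was lower by 22.5% (log2 fold change -0.37, SE 0.06, adjusted p = 0.00048). With a GC content offset, however, the value was -0.17 and no longer past the threshold (adjusted p = 0.075). Rbl1, which encodes p107, was at 115.1 and 125.4 CPM in fl/fl and 96.2 and 75.8 CPM in KO. It showed the largest decrease among the called members (log2 fold change -0.48, SE 0.11, adjusted p = 0.0066). This call ended with a GC content offset at -0.30 (adjusted p = 0.085) and without fl/fl library 2 at -0.43 (adjusted p = 0.066). Rbl2, which encodes p130, the pocket protein that prevails in resting cells, was at 36.2 and 34.2 CPM in fl/fl and 43.1 and 34.6 CPM in KO. Its libraries nearly coincided apart from KO library 1 (log2 fold change 0.14, 95% interval -0.21 to 0.49, adjusted p = 0.620), and without that library the sign turned to -0.04.

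Small parts of the pocket protein genes also overlap antisense genes. In Rb1, 8.11% of the exon length lies in Rcbtb2 and 6.78% in Lpar6, and in Rbl2, 9.17% lies in Aktip and 11.8% in Gm45464. Rcbtb2 had 36.5 to 44.2 CPM and Lpar6 3.54 to 6.67 CPM over the 4 libraries, and none of the 4 partners was called.

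The GC content of the longest transcript differed among the members. It was 58.3% in E2f1, 56.6% in E2f2 and 56.1% in E2f4, but 41.2% in Rb1 and 42.1% in Rbl1. Under the offset the GC-rich members had larger decreases, -0.41 for E2f2 and -0.45 for E2f4, and the GC-poor pocket protein genes smaller ones, so that 4 members were called lower: E2f1, E2f2, E2f4 and E2f8. An order of E2F against pocket protein genes by size of change therefore depended on this setting.

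**Figure D2:**
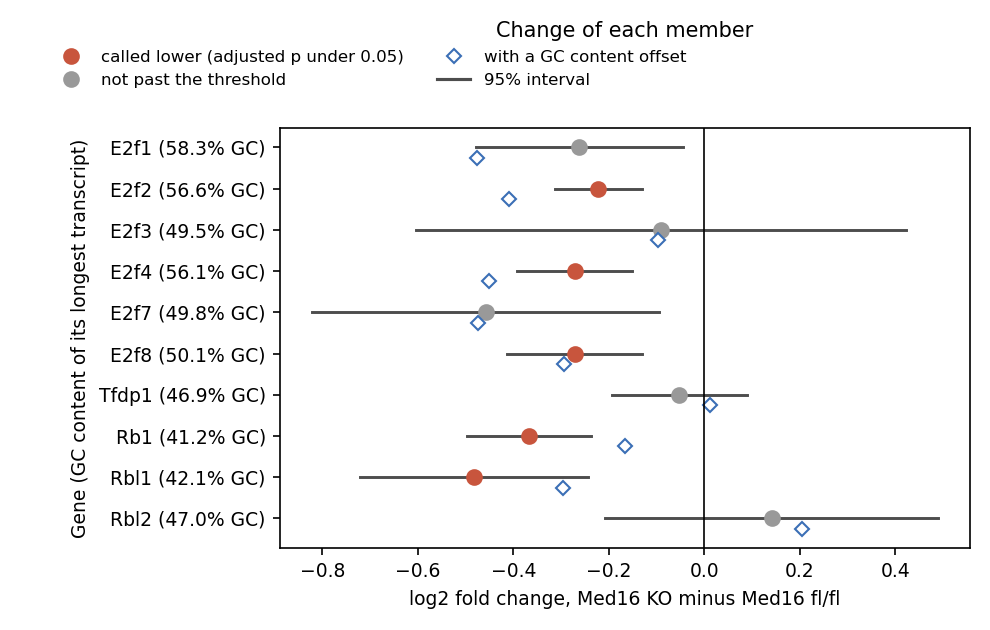
log2 fold change of each member, Med16 KO minus Med16 fl/fl, with its 95% interval (circles and lines) and the value with a GC content offset (open diamonds), beside the GC content of the longest transcript. Diamonds lie left of the circles for E2f1, E2f2 and E2f4 and right of them for Rb1 and Rbl1.

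Summed over their members, both roles were lower in Med16 KO. The summed level of E2f1, E2f2 and E2f3 was 1262 and 1299 CPM in fl/fl and 1061 and 1133 CPM in KO, lower by 14.3%. For E2f4, E2f7 and E2f8 the sum was 759.6 and 740.2 CPM in fl/fl and 597.7 and 636.8 CPM in KO, lower by 17.7%. The ratio of activating to repressing CPM was 1.66 and 1.75 in fl/fl and 1.78 and 1.78 in KO. On the log2 scale the KO mean lay 0.06 above the fl/fl mean, about the SD of the fl/fl libraries (0.06, n = 2). It was 0.05 per kilobase of transcript, and 0.05 with E2f2 left out of the sum (this alternative was added once the data had been seen). As a mean of log2 CPM, in which scarce members weigh as much as abundant ones, the difference was 0.13. No test was made of this ratio.

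**Figure D3:**
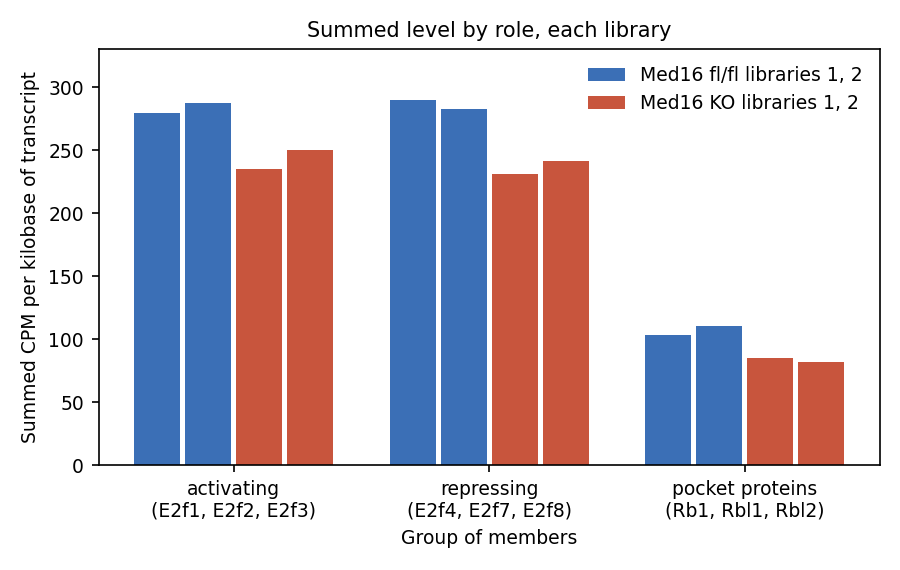
Summed level per kilobase of transcript for the activating, repressing and pocket protein members, 1 bar per library on an axis from 0, fl/fl libraries left of KO libraries. The KO bars are lower in all 3 groups, at 230.9 and 241.5 against 289.7 and 282.3 for the repressing members, for example.

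Per kilobase of its longest transcript, the members ranked in fl/fl from E2f2 (mean 247.5 CPM per kilobase) through E2f4 (187.7), E2f8 (90.9), Tfdp1 (83.7), Rb1 (74.9), E2f1 (32.4), Rbl1 (24.7), E2f7 (7.35) and Rbl2 (7.15) to E2f3 (3.59). Only E2f7 and Rbl2 overlapped among neighbours in that order, at 8.15 and 6.54 against 7.36 and 6.95 CPM per kilobase. In KO the order of Tfdp1 and E2f8 turned, with means of 80.7 and 75.3 CPM per kilobase, but their libraries overlapped. KO libraries of E2f7 (5.05 and 5.64) lay below those of Rbl2 (8.75 and 7.02). E2f2 alone supplied 87.1% to 87.7% of activating transcripts per kilobase in the 4 libraries, E2f4 supplied 64.5% to 67.2% of repressing ones and Rb1 66.6% to 72.4% of pocket protein ones. The leading gene of each role was thus the same in both genotypes.

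The 10 members were set beside markers of marrow cell types. They summed to 2738 and 2797 CPM in fl/fl and to 2293 and 2375 CPM in KO, lower by 15.6%, beside 14.9% for the sum of erythroid markers. That marker sum holds Alas2, which was higher at 10429 and 10197 CPM in fl/fl and 11145 and 11359 CPM in KO. By median log2 fold change the erythroid markers were lower (-0.44) than the members (-0.27). Over the same libraries the sum of neutrophil markers was higher by 41.4%. Calls in the lists that follow stand beside 8.50% higher and 9.89% lower over all genes tested. Other lists gave sums of 585.8 and 590.9 CPM in fl/fl against 698.0 and 712.5 CPM in KO for monocyte and macrophage markers, with 3 of 10 higher and 1 lower. B cell markers summed to 236.8 and 253.8 CPM against 234.2 and 235.5 CPM, with 1 of 8 higher (Cd79a). The antibody chain genes Ighm and Igkc and the gene Jchain, which are not in that list and were named after their values were seen, rose more. No cell type was assigned from these genes. Ighm was at 680.8 and 655.8 CPM in fl/fl and 3154 and 3159 CPM in KO (log2 fold change 2.24, SE 0.04), and Igkc and Jchain had log2 fold changes of 1.99 and 2.33. T and NK cell markers summed to 47.4 and 53.1 CPM against 56.5 and 59.4 CPM, with none of 6 called. Stromal and endothelial markers summed to 134.3 and 139.2 CPM against 223.8 and 276.8 CPM, with 2 of 4 tested higher. Among 6 markers of erythroid progenitors, Kit, Cd34 and Cd44 rose and Tfrc fell, of which Kit and Cd34 were named after their values were seen. The rest of that list, Gata2 and Myb, was not called. The sum of the 6 was 2892 and 2971 CPM in fl/fl and 1665 and 1625 CPM in KO, lower by 43.9%. Tfrc made up most of it, at 2627 and 2712 CPM in fl/fl and 1298 and 1330 CPM in KO. The part of cell composition in the members' decrease was not tested.

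Many known target genes of the E2F and DREAM factors fell too. Of all genes tested, 9.89% were called lower and 8.50% higher. Among those at least as abundant as the least abundant member, 17.4% were lower and 13.5% higher. Of 30 G1/S genes known as E2F targets, 15 fell and none rose, with a median of -0.23. The histone mRNA binding protein gene Slbp fell from 339.4 ± 12.7 to 235.6 ± 24.3 CPM (mean ± SD, n = 2; log2 fold change -0.53, SE 0.07), and the replication genes Pcna and Rrm2 fell by 0.42 and 0.36 on the log2 scale. Without KO library 2, 18 fell and 1 rose. Of 24 G2/M genes known as targets of DREAM and B-MYB, 19 fell and none rose, with a median of -0.49. Top2a and Cenpf fell by 0.62 and 0.74 on the log2 scale, and Mki67, the gene of this list with the highest CPM, fell from 4655 ± 119 to 2728 ± 38.5 CPM (-0.77, SE 0.03). The sums of the lists were lower by 15.8% for G1/S and 33.8% for G2/M, beside 15.6% for the members. With a GC content offset the medians were -0.21 for G1/S and -0.38 for G2/M, closer together than in the main fit. The difference between the lists was not tested.

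Promoter matches were also set against the calls. Of 1191 tested genes with an E2F motif in a promoter window, 14.4% were called lower and 5.79% higher, with a median of -0.05. Of 8105 without a match, 10.1% were lower and 9.07% higher, with a median of 0.03. A match stood in 14 of 25 G1/S genes and 3 of 21 G2/M genes that had a window. Among the members with a match, E2f2 and Rbl1 fell while E2f3, E2f7 and Tfdp1 were not past the threshold, and among those without, E2f8 fell while E2f1 and Rbl2 were not past it. For E2f2 the match was in the window whose bases after the start were in no transcript of the gene.

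**Figure D4:**
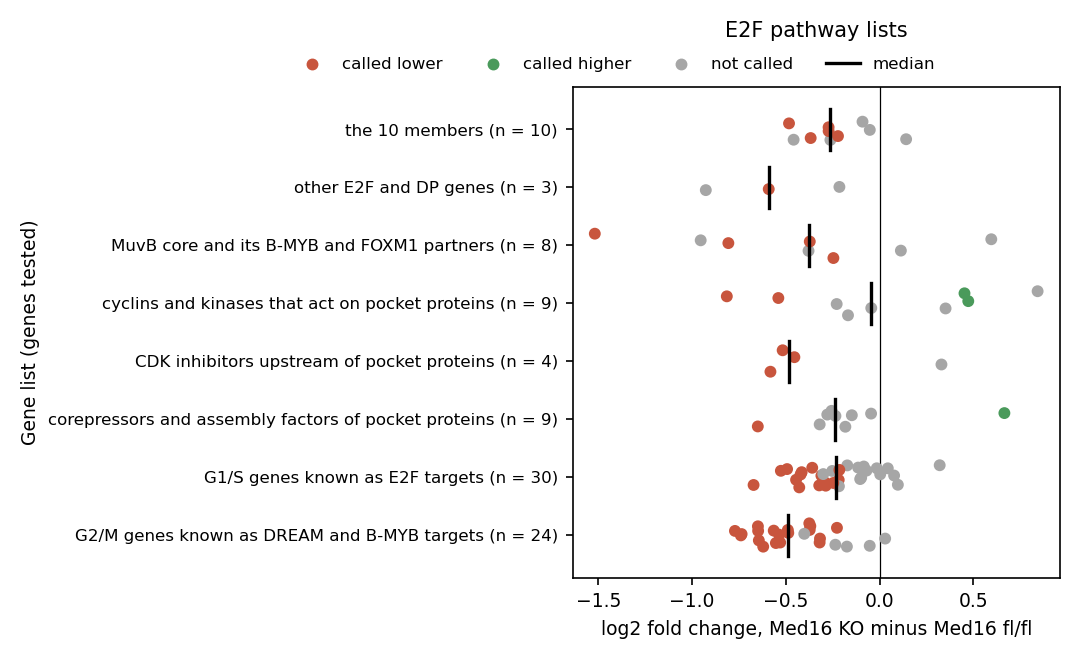
log2 fold change, Med16 KO minus Med16 fl/fl, of every tested gene of the members and 7 pathway lists, 1 point per gene coloured by call, with a bar at the median. The median of the G2/M list lies at -0.49 and that of the G1/S list at -0.23, near the -0.27 of the 10 members, and genes called higher appear in the lists of cyclins and kinases and of corepressors.

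Subunits of the MuvB core, which joins either pocket proteins and E2F4 (DREAM) or B-MYB and FOXM1, included the largest decrease among called genes of the 7 pathway lists. Lin52 fell from 15.0 and 15.5 CPM in fl/fl to 5.34 and 5.30 CPM in KO (log2 fold change -1.52, SE 0.30, adjusted p = 0.0019). Lin9 was at 29.2 and 38.0 CPM in fl/fl and 18.8 and 19.6 CPM in KO (-0.81, SE 0.19, adjusted p = 0.0085), a call lost without fl/fl library 2 at -0.61. Rbbp4, a histone chaperone shared with other complexes, fell by 0.37 on the log2 scale. The core subunit gene Lin37, named after its value was seen, went the other way. It was at 12.2 and 12.9 CPM in fl/fl and 19.7 and 18.2 CPM in KO and was not called (0.60, adjusted p = 0.093). Both KO libraries lay below both fl/fl libraries for 6 genes of this list and above for 2. The same held for 28.2% (below) and 29.4% (above) of all genes tested. Of all genes tested, 9.89% were called lower and 8.50% higher. Of the 8 genes of this list 4 fell and none rose, the fourth being Foxm1 at -0.25, named after its value was seen, and without fl/fl library 2 the count was 2. Without KO library 2, 4 fell and 1 rose. Of the other 2 E2F genes, E2f6, a repressor that needs no pocket protein, had 34.1 and 36.5 CPM in fl/fl and 27.0 and 34.0 CPM in KO (-0.21, adjusted p = 0.451). That value was -0.07 without KO library 1 and -0.40 without KO library 2, not past the threshold in either. E2f5, the closest relative of E2f4, was scarce in all libraries, with 0.281 to 2.55 CPM (-0.93, adjusted p = 0.509). Its KO libraries held 2 and 15 counts, so the value turned on the library kept: -3.01 without KO library 2, but -0.11 without KO library 1.

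Regulators upstream of the pocket proteins were called in both directions. Of 9 cyclins and kinases, 2 fell and 2 rose. Of all genes tested, 9.89% were called lower and 8.50% higher. Among tested genes at least as abundant as the least abundant member, the shares were 17.4% and 13.5%. With 9 genes, a count of 2 says little about the list. The late cyclin genes Ccne2 and Ccna2 fell by 0.81 and 0.54 on the log2 scale. Cdk4, which phosphorylates RB early in G1, rose from 105.7 and 93.7 CPM in fl/fl to 129.6 and 143.4 CPM in KO (log2 fold change 0.45, SE 0.10, adjusted p = 0.0033), as did Cdk6 (0.47), named after its value was seen. Without fl/fl library 2, none of the 9 was called higher, and Cdk4 was at 0.36 (adjusted p = 0.109). Among the D cyclins, which partner these kinases, Ccnd3, named after its value was seen, had the highest CPM, at 635.2 and 669.7 CPM in fl/fl and 627.6 and 638.0 CPM in KO, and it was not called (-0.04, 95% interval -0.15 to 0.06).

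Of 7 CDK inhibitor genes listed, 4 were tested and 3 fell: Cdkn1b by 0.58, Cdkn2d by 0.52 and Cdkn2c by 0.45 on the log2 scale. Of all genes tested, 9.89% were called lower and 8.50% higher. Cdkn2c, an inhibitor of CDK4 and CDK6, was at 218.6 and 196.3 CPM in fl/fl and 144.4 and 158.6 CPM in KO. The fourth, Cdkn1a, named after its value was seen, lay higher in both KO libraries, with 92 and 80 counts in fl/fl and 125 and 91 counts in KO, and was not called (log2 fold change 0.33, 95% interval -0.22 to 0.88). Cdkn1c, Cdkn2a and Cdkn2b had 0 counts in all 4 libraries, which allows up to 0.420 to 0.440 CPM in a library (3 counts, counting error only). Of 9 corepressors and assembly factors of pocket proteins, 1 fell and 1 rose, beside 9.89% lower and 8.50% higher of all genes tested. Among tested genes at least as abundant as the least abundant member, the shares were 17.4% and 13.5%. With 9 genes, a count of 1 says little about the list. Arid4a, which encodes an RB binding protein, fell by 0.65 on the log2 scale, and the corepressor gene Sin3b rose from 35.7 and 34.4 to 54.6 and 56.5 CPM (0.67, SE 0.14, adjusted p = 0.0030). Dyrk1a, whose kinase promotes assembly of DREAM, was at -0.28 and not past the threshold (adjusted p = 0.058). It was past it without the low count filter (-0.30) and with a replicate block (-0.28). The value was -0.42 without KO library 2 and -0.17 without KO library 1. Without fl/fl library 2, 1 of the 9 fell and none rose, and without KO library 1 or 2, 3 or 4 fell and 1 rose.

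The genes with the profile most like that of Rb1 over the 4 libraries, among 5911 compared, were Son, Lims1 and Hmgb2. Their Euclidean distances from Rb1 in centred log2 CPM were 0.0111, 0.0275 and 0.0305. With 4 libraries such a likeness says little beyond a similar decrease, with log2 fold changes of -0.36, -0.37 and -0.37.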

How the data were processed

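Each library has 1 deposited table of raw whole-number counts by gene. Per the submitters' processing notes, the tools were HTSeq 0.12.4, HISAT2 2.1.0, FastQC 0.11.7, HOMER and DESeq2, and the build was GRCm39. For the strand setting and the annotation release, nothing is given in the sources used here. The 5 rows that name no gene held 67.3% to 67.7% of reads and were left out.

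The main analysis used edgeR 4.0.16 in R 4.3.3. Genes were kept by filterByExpr, scaled by TMM and compared between genotypes, with no other term, by the two-sided quasi-likelihood test. Benjamini-Hochberg adjustment ran over the 13052 genes tested, with a threshold of 0.05. The SE is the log2 fold change divided by the square root of F. Lengths and GC content came from GENCODE M21 (GRCm38), matched by identifier for 98.4% of genes tested, so no coordinates of the counts are given. Offsets were splines of 5 degrees of freedom. Promoter sequences are from RefSeq (GRCm38.p6).

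The members and lists were chosen with earlier results of these data known. Named were all members, and from each pathway list the 3 genes with the smallest adjusted p and the most abundant one, or every gene of lists of 3. For the member with the smallest adjusted p, the 3 tested genes of at least 20 CPM with the nearest profile were named, on log2(CPM + 0.5). Up to 2 of the most abundant markers were named from a marker list. Other genes named for their values are marked as such. Alternatives were DESeq2 1.42.0, library size as the only scaling, no low count filter, a replicate block, GC content and transcript length offsets, and leaving out each library. The procedure was tested on simulated data with the same dispersion for every gene and both genotypes. That setting does not cover the wider spread between the KO libraries seen here.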

Additional observations from a re-analysis of the deposited data

How the results depend on the processing

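The count of 5 members called lower stayed between 4 and 6 in all 10 alternatives, with none called higher in any. It was 4 with a GC content offset, 4 to 6 with 1 library left out and 5 in the others. G1/S targets called numbered 10 to 19 and G2/M targets 16 to 21 when 1 library was left out, against 15 and 19. Genes called over the whole table numbered 2400 (1109 higher and 1291 lower), and 1158 to 3998 with 1 library left out. When only library size was scaled for, 56.4% of calls were higher in place of 46.2%. With that scaling and all 4 libraries kept, 10 G1/S and 18 G2/M targets were called, all lower. Fits without 1 library assume that the lone library varies like those of the other genotype. Those without a KO library take the spread from the fl/fl pair, which was the more alike. A call gained in such a fit is therefore not firmer evidence.

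The difference in activating to repressing level was 0.06, with 0.02 to 0.10 when 1 library was left out and 0.13 as a mean of log2 CPM. Signs turned for members not called: without KO library 1, E2f3 turned to 0.15 and Rbl2 to -0.040 (ranges with 1 library left out -0.41 to 0.15 and -0.040 to 0.28), and Tfdp1 turned to 0.0020 on library size alone and 0.012 with a GC content offset. The cause was not tested. E2f2, E2f4 and E2f8 were called in every alternative that kept all 4 libraries, and stayed negative with 1 library left out. Some of these settings were looser than the main fit. Against its 2400 genes, 2767 were called with the replicate block and 2601 without the low count filter.

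The labels number the libraries of both genotypes 1 and 2 without saying that a number is shared. Deviations of same-numbered libraries had a correlation of -0.01 over genes. With the replicate block, 5 members and 2767 genes were called, and 16 G1/S and 20 G2/M targets.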
